A study of Mus musculus with 6 samples.

Results

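The unfolded protein response and the integrated stress response were followed through 35 mouse genes, chosen by symbol as ATF4 targets, amino acid synthesis genes and ER chaperones and sensors, and all found among the 24594 Entrez genes of the count table. They were read in 2 arms. The ATF4 arm held 15 genes, of which 7 are regulators and effectors of the transcription factor ATF4 and 8 are enzymes of amino acid and one-carbon synthesis. The endoplasmic reticulum (ER) arm held 20 genes, of which 6 encode sensors and transcription factors, 11 encode chaperones, folding enzymes and cochaperones, and 3 act in ER-associated degradation. All 35 passed the filter on low counts.

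Both groups of libraries were epithelial organoids from the proximal small intestine of adult mice of the genotype TetON-hYAP/H2B-mCherry, in which doxycycline switches on a human YAP, the coactivator held in check by the Hippo pathway, in a constitutively active mutant form, together with a red fluorescent histone. The 3 control libraries had no doxycycline and the 3 doxycycline libraries had 1 µg/ml for 48 h from passaging. The medium of the labels' protocol held EGF (50 ng/ml), Noggin (100 ng/ml) and R-spondin1 (500 ng/ml), which maintain organoids and were common to both groups; CHIR99021 and nicotinamide are mentioned for some cultures, and no label ties them to these libraries. No group had doxycycline without the transgene, so the drug and YAP cannot be told apart. The share of cells that switched the transgene on was not measured here.

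In the integrated stress response, kinases that sense ER stress, amino acid shortage, haem deficiency or viral RNA phosphorylate the translation factor eIF2, which lowers protein synthesis in general while the mRNA of ATF4 is translated more. ATF4 then raises genes of amino acid supply, of feedback and, when stress lasts, of cell death. In the unfolded protein response, the ER membrane proteins PERK, IRE1 and ATF6 sense misfolded protein and raise chaperones, folding enzymes and the machinery that returns misfolded proteins to the cytosol for degradation. In the intestine this response is best known from Paneth and goblet cells, which secrete large amounts of protein. Much of it is set after transcription, by phosphorylation, by the unusual splicing of Xbp1 mRNA and by cleavage of ATF6, none of which gene counts show.

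With doxycycline, 4 of the 7 regulators and effectors of ATF4 rose, the synthesis enzymes Shmt2 and Aldh18a1 fell, and the ER arm went in both directions. Ppp1r15a rose 3.27-fold, Ddit3 2.95-fold and Trib3 2.00-fold. Shmt2 fell 2.69-fold (log2 fold change -1.43, or -0.87 without control replicate 3). In the ER arm Creb3l2 rose 7.40-fold and the chaperones Hspa5 and Dnajb9 rose 1.77-fold and 2.12-fold, while the folding genes Pdia4 and Sdf2l1 fell. Ern2, the IRE1 of mucus-secreting epithelium, fell to 2 reads in all. An adjusted p under 0.05 held in all 15 alternative settings for 5 of 13 such genes (Ddit3, Ppp1r15a, Ern2, Creb3l2 and Dnajb9). The falls of Pdia4 and Sdf2l1 did not reach it with any 1 doxycycline library left out.

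Of the 35 genes, 13 had an adjusted p under 0.05 in edgeR's quasi-likelihood test (8 higher, 5 lower). Among all 12909 genes tested the share called was 45.3% (21.7% higher and 23.6% lower), so the number called was not high for this comparison. In the ATF4 arm 6 of 15 were called and in the ER arm 7 of 20. CPM, the read count scaled to the TMM-adjusted library size and not to gene length, did not overlap between the groups for 22 of the 35 genes, against 61.3% of all genes. The median log2 fold change was 0.15 in the ATF4 arm and 0.07 in the ER arm, beside -0.08 over all genes. With total counts as the only scaling the median of all genes moved to -0.52 and those of the arms to -0.29 and -0.38, so the medians of the arms flip in sign while they lie above that of all genes by 0.23 and 0.15 on the TMM scale and by 0.24 and 0.15 with total counts. With total counts 53.3% of all genes were called, 25.4% of these calls being higher, against 47.9% on the TMM scale, on which directions are given below.

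**Figure D1:**
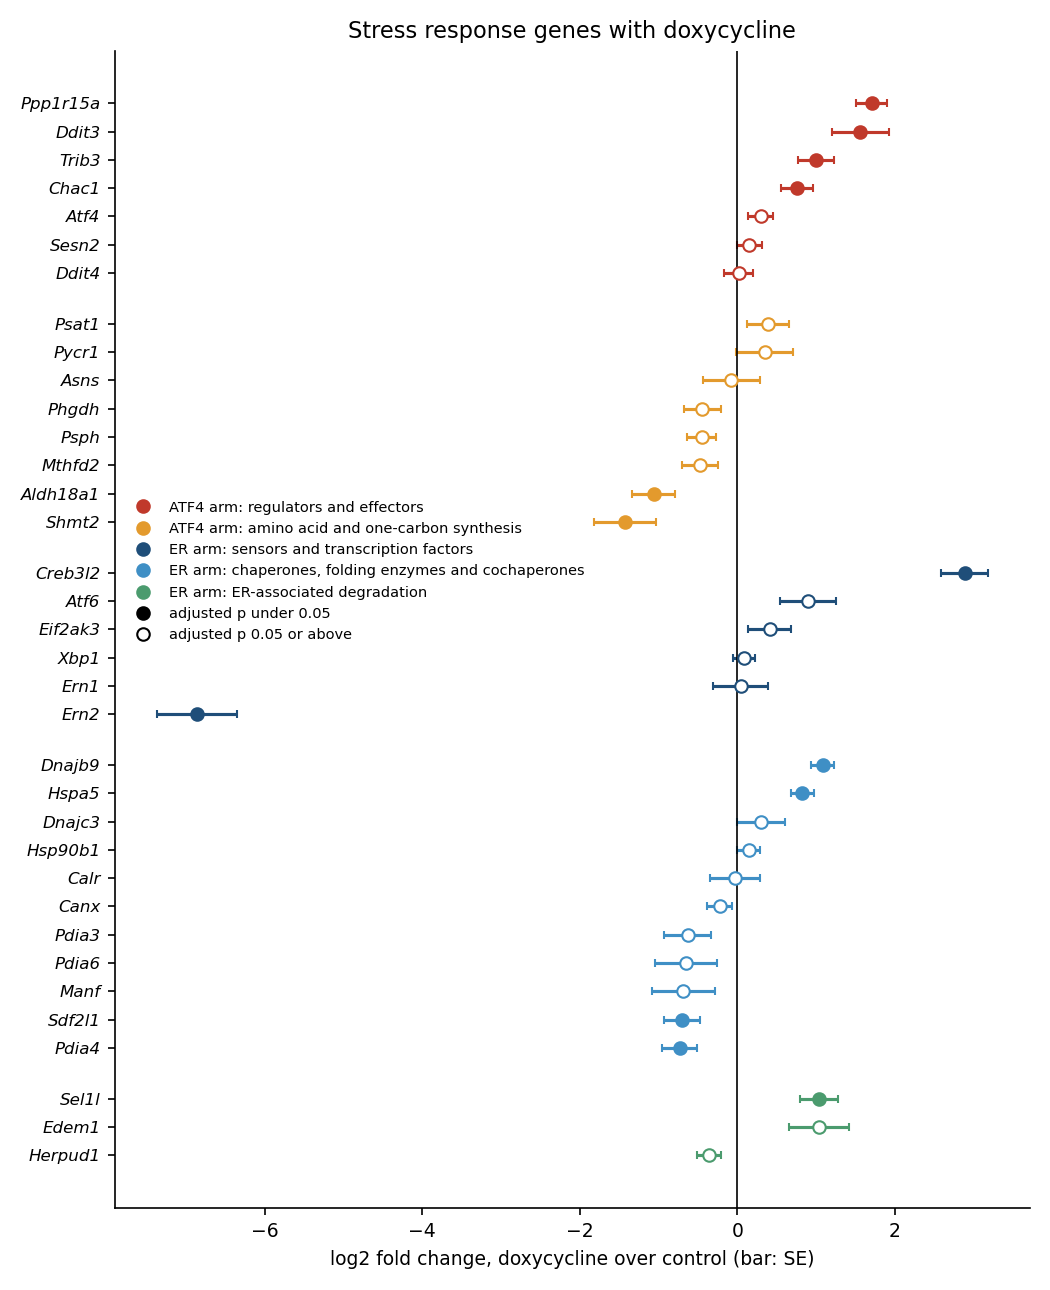
Log2 fold change of doxycycline over control (x axis, TMM-scaled edgeR fit) for the 35 genes (y axis), grouped by role, with bars of 1 SE from 3 libraries a group; filled points have an adjusted p under 0.05. The regulators and effectors of ATF4 lie at or above 0, the synthesis enzymes mostly below it, and Creb3l2 and Ern2 are the most distant points of the ER arm.

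Libraries held 8533452 to 16803062 counts. Control replicate 3 stood apart: its log2 CPM correlated at 0.916 and 0.919 with the other control libraries, which correlated at 0.991 with each other, while doxycycline libraries correlated at 0.986 to 0.990. The difference went with annotated exon length. All 7 of the genes with over 5 kb of exon (a length set after the values were seen) were lower in control replicate 3, at 0.365 to 0.577 of the mean of the other controls, and 24 of the 28 shorter genes were higher, at up to 2.69 times that mean. Spearman's rho of exon length with this ratio was -0.47 across the 35 genes and -0.42 across the 12329 tested genes with a length, as descriptions over genes of the same libraries. Results of the 35 genes are therefore given also without that library. There 12 of the 15 genes of the ATF4 arm and 13 of the 20 of the ER arm were called, against 69.9% of all genes. Counts and medians of the other gene lists below use all 6 libraries. RNA integrity was not given in the sources used here, and its part in the difference of control replicate 3 was not tested.

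**Figure D2:**
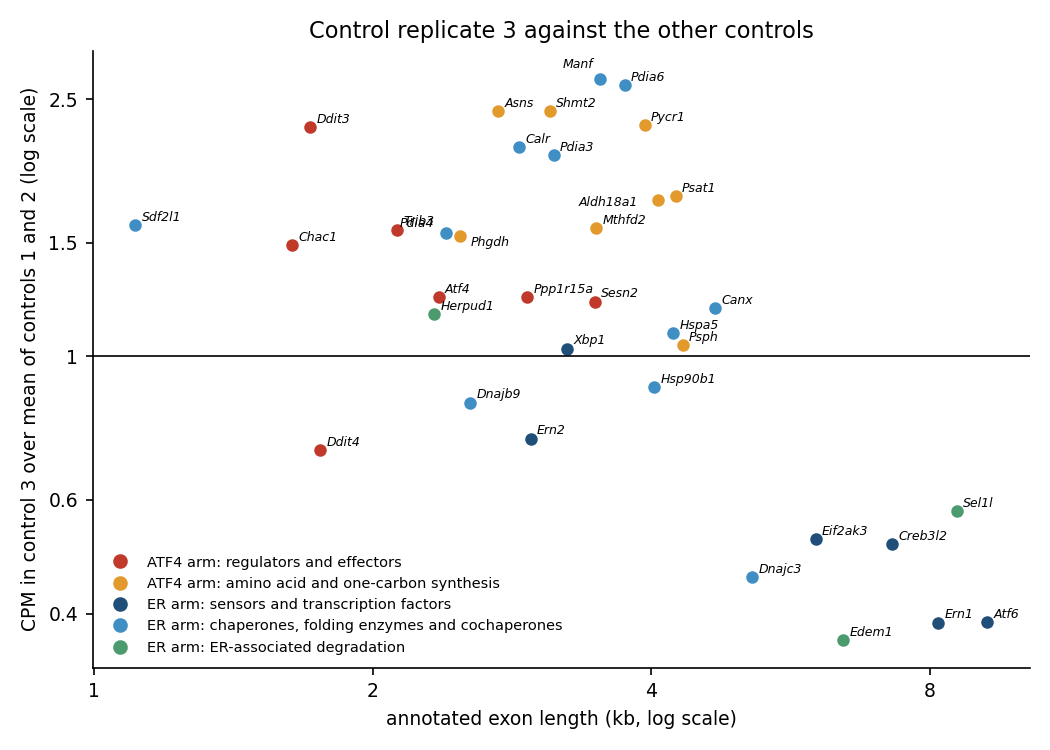
CPM of each of the 35 genes in control replicate 3 over the mean of control replicates 1 and 2 (y axis, log scale) against annotated exon length in kb (x axis, log scale), 1 point per gene. The 7 genes with over 5 kb of exon lie at 0.365 to 0.577.

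The epithelial identity of the cultures was plain from marker levels. Summed CPM of 6 epithelial markers was 4177 to 5194 in the controls and 17931 to 19150 with doxycycline. Between the groups 5 of the 6 were called, all higher. Mesenchymal, immune and endothelial markers were near 0, with 1 of 6, 2 of 6 and 1 of 4 passing the filter (Vim among them fell and Tek rose), and Col1a1, Dcn and Kdr had no read in any library. Within the epithelium the levels of cell type markers differed. Of 10 Paneth markers 9 fell and none rose, from a summed 2216 to 4553 CPM to 52.8 to 57.7 CPM; of 10 goblet markers 9 fell, while their summed CPM overlapped (391 to 1376 and 823 to 1206); of 10 enterocyte markers 9 rose; and of 8 proliferation genes 7 fell, from 947 to 1364 to 307.0 to 356 CPM. In bulk libraries fewer cells of a type and less RNA per cell cannot be told apart, and the part of these shifts in the results below was not tested.

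Atf4 itself, the factor of the first arm, was at 415, 376 and 488 CPM in controls 1, 2 and 3, and at 538, 517 and 515 CPM in the doxycycline libraries. Every doxycycline library was above every control, but the difference was small (log2 fold change 0.30, SE 0.161) and was not called (edgeR adjusted p = 0.172). Without control replicate 3 it was 0.42 and called (adjusted p = 3.67e-05), as it was with the length trend removed (0.44, adjusted p = 0.0245). With total counts as the scaling its sign was negative (-0.15, adjusted p = 0.474).

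Ppp1r15a encodes GADD34, the phosphatase subunit that removes the phosphate from eIF2 and so closes the loop (Entrez 17872, chr7:45522917-45526268). It had 18.9, 18.1 and 22.8 CPM in the controls and 52.7, 74.4 and 68.3 CPM with doxycycline. The groups lay far apart relative to their spread, with a log2 fold change of 1.71 (SE 0.196, adjusted p = 6.89e-04). It was called in all 15 alternative settings, with an adjusted p of at most 0.00628 when a library was left out.

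Ddit3 encodes CHOP, a transcription factor of prolonged stress that is linked to cell death (Entrez 13198, chr10:127290793-127296291). Its CPM was 27.1, 19.9 and 53.1 in the controls and 97.7, 108.9 and 88.2 with doxycycline, a log2 fold change of 1.56 (SE 0.360, adjusted p = 0.0120). Control replicate 3 was the highest control for Ddit3, Trib3 and Chac1, and without it the change of Ddit3 was 2.07 (adjusted p = 7.79e-10). Ddit3 was also called in all settings.

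Trib3, a pseudokinase that dampens ATF4 and AKT signalling, had 62.6, 50.7 and 89.0 CPM in the controls and 133.8, 138.6 and 132.5 CPM with doxycycline (log2 fold change 1.00, SE 0.226, adjusted p = 0.0110). Its call was lost with total counts (0.56, adjusted p = 0.0728). Chac1, which breaks down glutathione, had 47.4, 40.5 and 65.4 CPM and then 84.4, 87.3 and 87.7 CPM (0.76, SE 0.204, adjusted p = 0.0214). The rise of Chac1 was the least secure of the 4: with total counts its adjusted p was 0.224, and without any 1 library other than control replicate 3 it was 0.0635 to 0.0760.

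Sesn2 and Ddit4, which restrain the growth kinase complex mTORC1, did not follow. Sesn2 had 51.5, 48.2 and 60.6 CPM in the controls and 63.2, 57.6 and 57.2 CPM with doxycycline (adjusted p = 0.463). Ddit4 had 315.7, 289.0 and 216.4 CPM and then 262.3, 280.5 and 287.4 CPM, so the doxycycline values lay within the range of the controls (log2 fold change 0.02, adjusted p = 0.954). Without control replicate 3 Sesn2 was called higher (0.26, adjusted p = 0.0215) and Ddit4 was at -0.11 (adjusted p = 0.184). Of the 7 regulators and effectors 4 were thus called, all higher, with a median of 0.76. Without control replicate 3 there were 6, all higher, and with total counts 2. Over all genes tested the shares called in these settings were 45.3%, 69.9% and 53.3%, in that order.

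**Figure D3:**
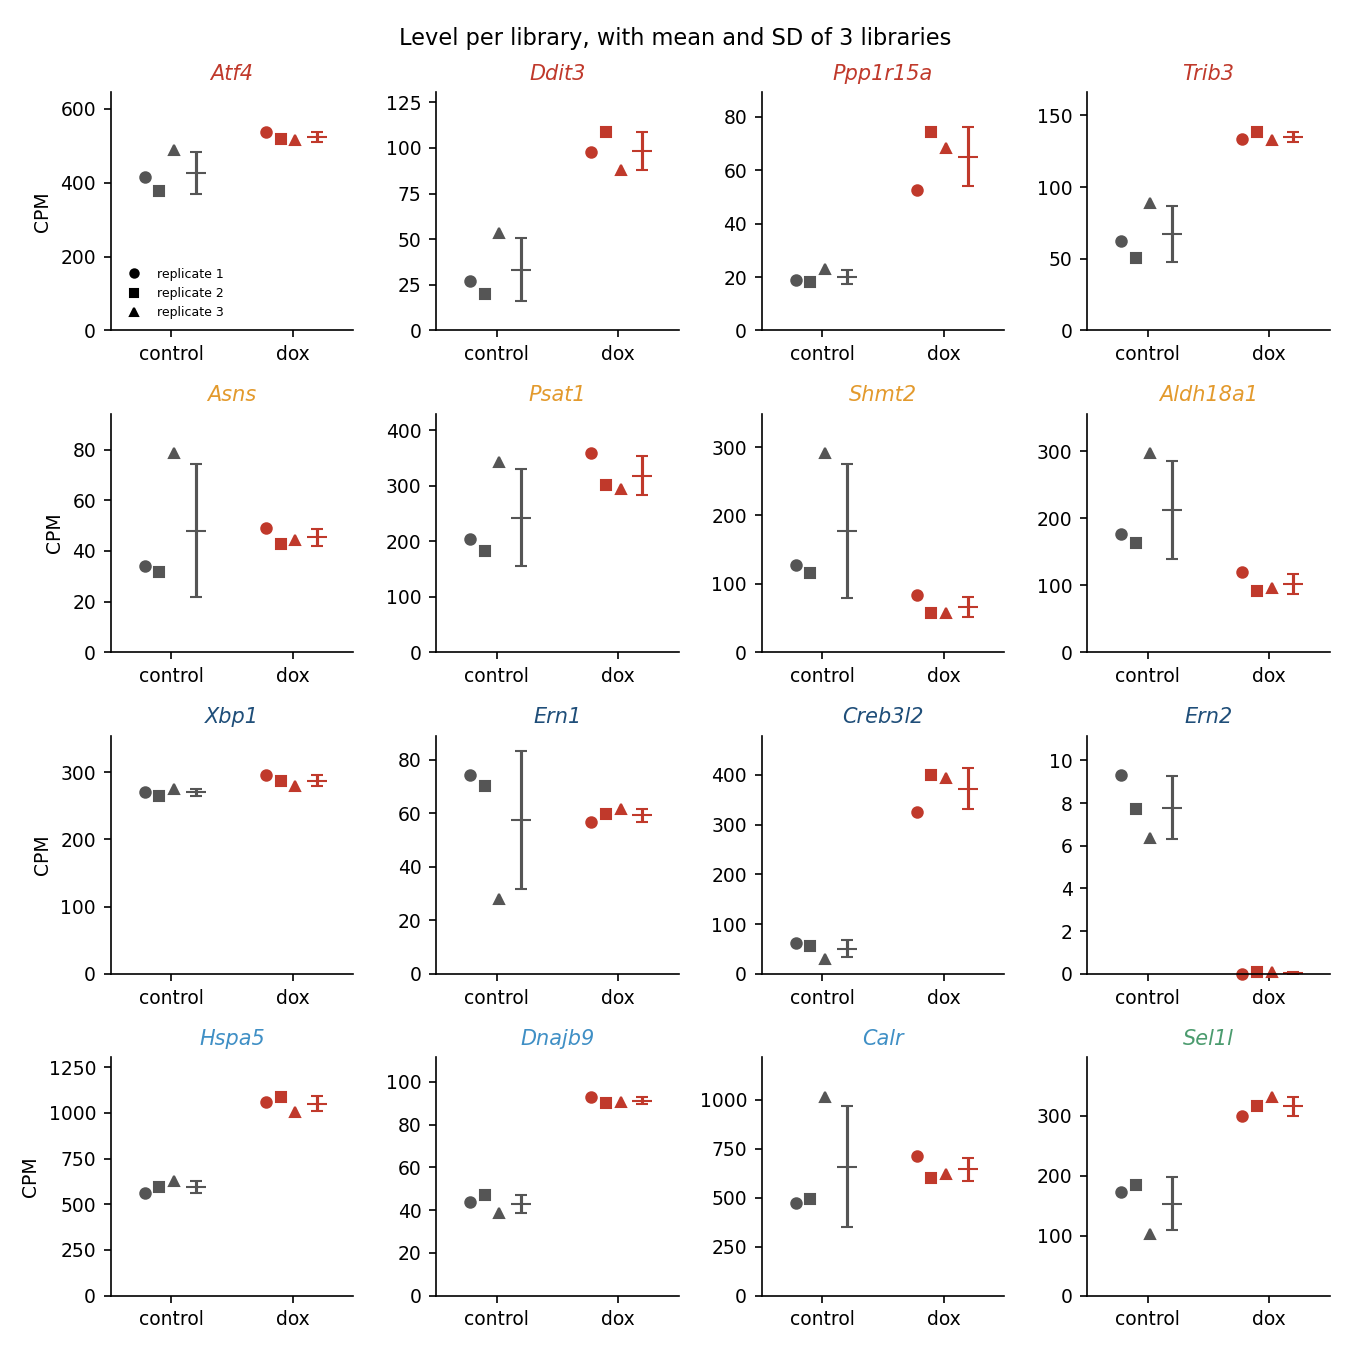
CPM (y axis, from 0) of 16 of the 35 genes in each control and doxycycline (dox) library, with symbols for replicates 1, 2 and 3 and a bar for the mean and SD of the 3 libraries. Ppp1r15a, Trib3, Creb3l2, Hspa5 and Dnajb9 separate the groups clearly, while control replicate 3 lies far from the other controls for Asns, Psat1, Shmt2, Aldh18a1, Ern1 and Calr.

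ATF4 binds, with C/EBP partners, to composite elements with the core TGATGNAA, here called CARE. RefSeq promoters (GRCm38.p6, the assembly behind mm10, 250 bases before to 50 after a start) were found for 32 of the 35 genes, not for Ern2, Atf6 and Manf. The core was on either strand in 4 of the 16 promoters of the ATF4 arm, against 3.97% of all 32851 promoters and 2.23% of those of tested genes, and in 1 of 17 promoters of the ER arm (Herpud1). These 4 stretches are shown, on the gene's strand and with the match in capitals, because the core is the element through which ATF4 is known to act:

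Chac1: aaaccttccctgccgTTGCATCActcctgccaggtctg

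Trib3: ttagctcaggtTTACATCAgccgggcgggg

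Asns: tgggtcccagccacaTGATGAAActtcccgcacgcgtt

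Pycr1: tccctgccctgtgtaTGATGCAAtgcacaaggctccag

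They lie at chr2:119351034-119351071 (plus strand), chr2:152344028-152344057 (minus), chr6:7693210-7693247 (minus) and chr11:120643829-120643866 (minus). The matches start 193, 23 and 103 bases before the start of Chac1, Asns and Pycr1, and 15 bases into the transcript of Trib3. Chac1 and Trib3 rose; Asns and Pycr1 were not called with all 6 libraries. Ppp1r15a and Ddit3, which rose more, had no match in this window. A match is a string of letters and does not show that ATF4 was bound.

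The synthesis enzymes, which in many cell types rise together with Ddit3 and Trib3, did not do so as a group here. Of 8 enzymes none was called higher and 2 were called lower, with a median log2 fold change of -0.45. That is 25% called, against 45.3% of all genes tested. All 8 were higher in control replicate 3 than the mean of the other controls (1.04 to 2.39 times), and without it 3 were called higher and 3 lower, with a median of -0.20. In that setting 69.9% of all genes were called. With total counts none was called higher and 5 lower. There 53.3% of all genes were called, and only 25.4% of these calls were higher.

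Shmt2, the mitochondrial serine hydroxymethyltransferase (Entrez 108037, chr10:127517123-127522444), had 127.3, 115.6 and 290.7 CPM in the controls and 83.1, 57.7 and 57.7 CPM with doxycycline. All doxycycline libraries were below all controls, with a log2 fold change of -1.43 (SE 0.389, adjusted p = 0.0227). The fall was -0.87 without control replicate 3 (adjusted p = 4.11e-04), and its call was lost without doxycycline replicate 2 (adjusted p = 0.0925) or 3 (0.0906). Aldh18a1, which makes the precursor of proline and ornithine, had 177.1, 163.2 and 296.7 CPM and then 119.1, 90.7 and 95.2 CPM (-1.06, SE 0.269, adjusted p = 0.0171). It was at -0.73 without control replicate 3 (adjusted p = 7.00e-06), and it was not called without doxycycline replicate 2 (0.0791) or 3 (0.0758).

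Psat1, the transaminase of the serine pathway, had 204.4, 181.8 and 342.2 CPM in the controls and 358.3, 301.8 and 294.1 CPM with doxycycline. Control replicate 3 lay within the range of the doxycycline libraries, and the other controls lay below that range (log2 fold change 0.39, adjusted p = 0.268), and without that library it was higher by 0.73 (adjusted p = 1.11e-06). Asns, the asparagine synthetase and a standard ATF4 target, had 33.9, 31.7 and 78.5 CPM and then 49.2, 42.8 and 44.4 CPM (-0.08, adjusted p = 0.882). Its direction turned, to 0.48, without control replicate 3 (adjusted p = 6.02e-04). Pycr1, which completes proline synthesis, was at 0.35 (adjusted p = 0.475) and at 0.85 without that library (adjusted p = 3.10e-04).

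The other enzymes of the serine and folate route were lower or close to the controls. Phgdh, which starts the serine pathway, had 20.3 ± 5.35 CPM in the controls and 14.9 ± 1.53 CPM with doxycycline (SD, n = 3), and Psph, which completes it, 15.5 ± 0.551 and 11.3 ± 1.24 CPM. Both groups were free of overlap for these 2 genes, yet neither was called (adjusted p = 0.161 and 0.0817). Mthfd2, the mitochondrial folate enzyme, had 97.2 ± 28.2 and 69.8 ± 5.55 CPM (adjusted p = 0.130). With total counts Phgdh, Psph and Mthfd2 were called lower (adjusted p = 0.0166, 0.00577 and 0.0148). Without control replicate 3 Psph was called lower (-0.41, adjusted p = 0.0309). Phgdh and Mthfd2 were then at -0.19 and -0.21, and neither was called (adjusted p = 0.273 and 0.0629). Proliferation genes fell in the same libraries, as given above.

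Other genes of amino acid metabolism went in both directions. Of 19 tested enzymes of serine, one-carbon, proline and nitrogen metabolism beyond the 8, 3 rose and 7 fell (median -0.55). That is 52.6% called, against 45.3% of all genes tested (21.7% higher and 23.6% lower). Log2 fold changes of this list ran from -2.85 to 1.71. Named here are those with the smallest adjusted p, which all fell. The cytosolic Shmt1 fell by 2.85 on the log2 scale (adjusted p = 7.83e-05), the glutamine synthetase Glul from 105.2 ± 8.10 to 24.5 ± 4.34 CPM and the ornithine aminotransferase Oat from 561.0 ± 224.7 to 113.0 ± 7.40 CPM. Of 11 tested amino acid transporters 1 rose and 3 fell (36.4% called, median -0.31). Slc1a5, a glutamine carrier, fell from 138.0 ± 7.28 to 64.0 ± 2.85 CPM. Slc7a5, a large neutral amino acid carrier, fell from 218.8 ± 15.8 to 110.2 ± 4.57 CPM. Slc7a3, a cationic amino acid carrier, rose from a low 0.703 ± 0.299 to 4.73 ± 1.16 CPM. These 6 calls held in all alternative settings.

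Of 19 eIF2 kinases, eIF2B subunits and partners of ATF4, 4 rose and 4 fell (42.1% called, median 0.03). The share called over all genes tested was 45.3%. Those named have the smallest adjusted p and all rose, while the 4 that fell, eIF2B subunits among them, are not named. The bZIP factors Jdp2 and Atf3 rose from 3.10 ± 0.541 to 67.3 ± 8.67 CPM and by 2.57 on the log2 scale (adjusted p = 3.30e-04), and Cebpb, a dimer partner of ATF4, from 137.3 ± 7.37 to 243.6 ± 21.5 CPM. The call of Cebpb was lost with total counts (adjusted p = 0.0726).

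The ER arm began with its sensors. Ern1, the IRE1 kinase and nuclease found in most cells, had 74.2, 70.2 and 28.0 CPM in the controls and 56.5, 59.8 and 61.4 CPM with doxycycline (log2 fold change 0.04, adjusted p = 0.933). Its direction turned without control replicate 3, to -0.27 (adjusted p = 0.0113). Ern2, its relative of mucus-secreting epithelium (Entrez 26918, chr7:122169893-122186239), had 159, 100 and 63 reads in the controls and 0, 1 and 1 with doxycycline, or 9.30, 7.70 and 6.34 against at most 0.0925 CPM. The fall passed the test in all settings (log2 fold change -6.86, SE 0.512, adjusted p = 1.46e-04). From 322 and 2 reads the level was 140.2 times lower after scaling, with an exact 95% interval of 38.5 to 1162 that covers counting error only. Goblet markers fell in the same libraries (9 of 10, median -5.18).

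Eif2ak3 encodes PERK, the sensor that phosphorylates eIF2. It had 33.6, 34.6 and 17.8 CPM in the controls and 35.4, 41.7 and 37.3 CPM with doxycycline (0.41, adjusted p = 0.252). Without control replicate 3 its change was 0.18 (adjusted p = 0.164). Atf6, the sensor that is cut to release a transcription factor, had 118.5, 120.9 and 46.5 CPM and then 162.3, 187.2 and 185.2 CPM. Its groups did not overlap and its log2 fold change was 0.90 (SE 0.355), without being called (adjusted p = 0.0759); without control replicate 3 it was 0.59 and called (adjusted p = 3.54e-06), and it was called by DESeq2 (adjusted p = 0.0305) and with the length trend removed (0.0278).

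Xbp1, the factor that IRE1 activates by splicing, was among the most even genes: 270.2, 264.2 and 274.7 CPM in the controls and 295.3, 286.2 and 279.2 CPM with doxycycline. The groups did not overlap, but the log2 fold change was only 0.09 (SE 0.139, adjusted p = 0.630), it was not called in any of the 15 settings, and its sign turned with total counts (-0.35, adjusted p = 0.0725). Spliced and unspliced forms are joined in the count. Creb3l2, a membrane-bound factor related to ATF6 that acts in secretory capacity (Entrez 208647, chr6:37327255-37442276), showed the highest rise of the 35 genes: 63.1, 57.0 and 30.8 CPM in the controls and 324.8, 399.4 and 393.9 CPM with doxycycline (log2 fold change 2.89, SE 0.299, adjusted p = 4.97e-04). Control replicate 3 was the lowest library; the rise was called in all settings and was 2.65 without it.

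Related sensors and factors of secretory cells went in both directions, with 2 of 11 higher and 5 lower (63.6% called, median -0.82). Of all genes tested 45.3% were called. Bhlha15, the MIST1 factor of secretory cells, fell from 48.7 ± 11.7 to 1.71 ± 0.394 CPM and Agr2, a disulfide isomerase of goblet cells that is also on the goblet marker list, from 9.11 ± 2.41 to 0.183 ± 0.105 CPM. Wfs1, an ER membrane protein that is itself a target of the response, rose from 33.5 ± 4.50 to 113.2 ± 2.90 CPM. These 3 calls held in all settings.

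Chaperone promoters are known for the ER stress element (ERSE), CCAAT and CCACG with 9 bases between them, where ATF6 and XBP1 act with NF-Y. On either strand it was in 6 of 17 promoters of the ER arm and in 0 of 16 of the ATF4 arm, against 0.12% of all promoters and 0.15% of those of tested genes. For Hspa5 the whole stretch before the start is shown (chr2:34771840-34772089, plus strand), with the 1 exact match in capitals. CCAAT occurs 4 times in it on either strand and CCACG once, so close variants of the element were not counted:

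Hspa5: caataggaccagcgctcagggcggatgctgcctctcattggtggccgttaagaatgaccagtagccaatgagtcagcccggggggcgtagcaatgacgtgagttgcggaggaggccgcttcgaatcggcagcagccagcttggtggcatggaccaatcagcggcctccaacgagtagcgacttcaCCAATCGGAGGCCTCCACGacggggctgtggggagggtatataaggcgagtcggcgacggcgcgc

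The other genes with the element are shown by the match and 15 bases on each side, since they share it with Hspa5 and were not called with all 6 libraries:

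Hsp90b1, farther match: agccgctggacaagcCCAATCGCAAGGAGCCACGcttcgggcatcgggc

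Hsp90b1, nearer match: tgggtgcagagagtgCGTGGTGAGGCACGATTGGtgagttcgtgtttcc

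Calr: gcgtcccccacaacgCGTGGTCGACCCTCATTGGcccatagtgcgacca

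Canx: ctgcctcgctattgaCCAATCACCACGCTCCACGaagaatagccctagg

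Pdia6: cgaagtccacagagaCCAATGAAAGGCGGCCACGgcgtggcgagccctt

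Dnajc3: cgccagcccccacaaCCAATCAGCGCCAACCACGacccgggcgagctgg

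They lie, in the order shown, at chr10:86705623-86705671 and chr10:86705518-86705566 (both minus strand), chr8:84847060-84847108 (minus), chr11:50325785-50325833 (minus), chr12:17266476-17266524 (plus) and chr14:118937812-118937860 (plus). Of the 6 genes with an exact ERSE, only Hspa5 was called with all libraries. The related ERSE-II, ATTGG and CCACG with 1 base between them, was in 1 promoter of the ER arm, that of Herpud1 (chr8:94386362-94386402, plus strand), against 0.04% of all promoters:

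Herpud1: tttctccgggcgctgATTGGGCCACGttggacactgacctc

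The element TGACGTGG, known as UPRE, was in none of the 33 promoters, against 0.68% of all. The TEAD core GGAATG, through which YAP is known to act, was in 4 of 17 promoters of the ER arm (Creb3l2, Eif2ak3, Ern1 and Pdia6) and 0 of 16 of the ATF4 arm, against 14.7% of all promoters and 12.5% of those of tested genes. Of the 4, only Creb3l2 was called. Elements outside these windows were not searched.

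Hspa5, which encodes BiP, the ER chaperone that also holds the sensors inactive (Entrez 14828, chr2:34772090-34776529), had 561, 594 and 628 CPM in the controls and 1058, 1087 and 1007 CPM with doxycycline. The groups were well separated and control replicate 3 was close to the other controls (log2 fold change 0.82, SE 0.146, adjusted p = 0.00394). The rise was called with each library left out (adjusted p of at most 0.0277) but not with total counts (0.38, adjusted p = 0.0637). Dnajb9, or ERdj4, a cochaperone of BiP that acts in degradation and restrains IRE1 (Entrez 27362, chr12:44205897-44210068), had 43.7, 47.0 and 38.5 CPM and then 92.9, 90.0 and 90.8 CPM (1.08, SE 0.149, adjusted p = 0.00135), and was called in all settings.

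The other chaperones of the lectin and heat shock families were not called. Hsp90b1, or GRP94, had 92.6 ± 5.76 and 102.5 ± 8.16 CPM (adjusted p = 0.455), the lectin chaperone Canx 464 ± 47.3 and 398 ± 36.9 CPM (0.293), and Dnajc3, or p58IPK, an inhibitor of PERK, 120.1 ± 46.4 and 147.7 ± 5.36 CPM (0.459). Without control replicate 3 Hsp90b1, Canx and Dnajc3 were at log2 fold changes of 0.11, -0.12 and 0.02, and none was called. Calr, the soluble lectin chaperone, had 471, 492 and 1014 CPM in the controls and 712, 603 and 618 CPM with doxycycline (-0.03, adjusted p = 0.944). Only control replicate 3 was above the doxycycline libraries, and without it Calr was higher by 0.43 (adjusted p = 6.12e-05).

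Of the disulfide isomerases Pdia4, Pdia3 and Pdia6, only Pdia4 was called. It had 100.4, 100.6 and 156.0 CPM in the controls and 79.6, 70.1 and 65.3 CPM with doxycycline (-0.73, SE 0.221, adjusted p = 0.0324). It was at -0.48 without control replicate 3 (adjusted p = 1.31e-04), and the call was lost without any 1 doxycycline library (adjusted p = 0.0747 to 0.130). Pdia3 (177.9 ± 80.0 and 114.8 ± 1.81 CPM, adjusted p = 0.131) and Pdia6 (72.0 ± 43.9 and 45.7 ± 3.39 CPM, 0.214) were not called, and without control replicate 3 Pdia3 was at -0.19 (adjusted p = 0.0401) and Pdia6 at -0.02 (0.874).

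Sdf2l1, which works with BiP and its cochaperones, had 47.8, 51.4 and 79.1 CPM and then 40.6, 33.9 and 35.2 CPM (-0.70, SE 0.229, adjusted p = 0.0426). Its call was lost without control replicate 2 or any 1 doxycycline library (adjusted p = 0.0571 to 0.149) and with the length trend removed (0.0729), and it was -0.43 without control replicate 3 (adjusted p = 0.00168). Manf, a secreted protein that binds BiP, had 60.1, 60.0 and 161.5 CPM in the controls and 64.1, 53.2 and 57.8 CPM with doxycycline (-0.68, adjusted p = 0.206; -0.03 and 0.806 without control replicate 3). Of the 11 chaperones and folding genes 2 were thus called higher and 2 lower (median -0.22). Without control replicate 3 there were 3 and 3 (median -0.02), and with total counts 1 and 4. Over all genes tested 45.3%, 69.9% and 53.3% were called in these settings, and 47.9%, 49.9% and 25.4% of these calls were higher.

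Per kilobase of exon, the scale on which levels of different genes can be set side by side, Calr (229 and 224 CPM per kb in the control and doxycycline means) and Hspa5 (141 and 248) were the most abundant genes of the ER arm. Atf4 (181 and 222) and Ddit4 (156 and 158) led the ATF4 arm. Ern2 (2.62 and 0.0184) was at the low end of the 35 genes in both groups. With the spread of the control libraries for Calr (SD 308 CPM on a mean of 659 CPM), the order of Calr and Hspa5 in the controls was not set beyond that spread.

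In ER-associated degradation, Sel1l, the scaffold of the HRD1 ubiquitin ligase, rose from 172.9, 184.3 and 103.1 CPM to 299.5, 316.4 and 331.5 CPM (1.04, SE 0.241, adjusted p = 0.0121). Its call was lost with total counts (adjusted p = 0.0697) and narrowly without doxycycline replicate 3 (0.0504). Edem1, a lectin-like protein that hands over misfolded glycoproteins, had 107.2, 119.2 and 41.3 CPM and then 156.8, 190.8 and 201.6 CPM. Its groups did not overlap and its change was as large as that of Sel1l (1.04, SE 0.381), but it was not called (adjusted p = 0.0622); without control replicate 3 it was 0.71 and called (5.43e-06), and DESeq2 called it (0.0188). Herpud1, a membrane protein of the same complex and usually among the first genes to rise in ER stress, was lower in every doxycycline library (59.7, 59.7 and 69.5 against 52.4, 48.0 and 46.6 CPM), and was not called (-0.36, adjusted p = 0.0879; -0.27 and 0.0173 without control replicate 3). With total counts Herpud1 was the only one of the 3 called (-0.80, adjusted p = 0.00485).

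Of all genes tested 45.3% were called, 21.7% higher and 23.6% lower. Among 14 further genes of ER-associated degradation 3 rose and none fell (21.4% called, median 0.15). Among them were the ubiquitin-conjugating enzyme Ube2j1 (91.9 ± 23.1 to 171.8 ± 7.06 CPM) and the channel protein Derl1 (180.2 ± 3.70 to 241.7 ± 6.44 CPM). Neither call held in all settings, and Derl1 turned with total counts (-0.02, adjusted p = 0.918). Among 23 tested genes of ER folding and translocation beyond the 11, 2 rose and 3 fell (21.7% called, median -0.45). Summed CPM of this list was 3888, 3901 and 5618 in controls 1, 2 and 3 and 5312, 5165 and 5221 with doxycycline. The sum was thus higher with doxycycline than in controls 1 and 2. The oxidase Ero1a rose from 105.4 ± 53.0 to 349 ± 45.1 CPM, with its call lost without doxycycline replicate 2 (adjusted p = 0.0528), and the disulfide isomerase Txndc5 fell from 336.9 ± 55.1 to 126.7 ± 6.88 CPM and the cochaperone Dnajc10 from 59.4 ± 16.5 to 29.3 ± 6.95 CPM. The call of Dnajc10 was lost without doxycycline replicate 2 or 3 (adjusted p of up to 0.0800).

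Chaperones of other compartments gave no common direction. Of 11 tested cytosolic heat shock genes 2 rose and 2 fell (36.4% called against 45.3% of all genes tested, median -0.19). The inducible Hspa1b rose from 7.18 ± 2.31 to 80.9 ± 3.53 CPM and its near-identical neighbour Hspa1a from 4.20 ± 1.59 to 16.6 ± 3.34 CPM. Reads may have been divided between these neighbours. Hsph1 fell from 54.0 ± 7.87 to 24.0 ± 6.27 CPM. Of 8 mitochondrial chaperones and proteases none rose and 2 fell (25% called, median -0.56). Their summed CPM was 687, 688 and 1108 in controls 1, 2 and 3 and 756, 734 and 724 with doxycycline. The genes that fell were Hspd1 (119.2 ± 30.8 to 57.6 ± 8.27 CPM) and Hspe1 (17.5 ± 5.03 to 9.53 ± 1.97 CPM), which together form the chaperonin of the matrix. The call of Hspd1 was lost without doxycycline replicate 3 (adjusted p = 0.0545). That of Hspe1 was lost without any 1 library other than control replicate 2 or 3 (adjusted p of up to 0.141).

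**Figure D4:**
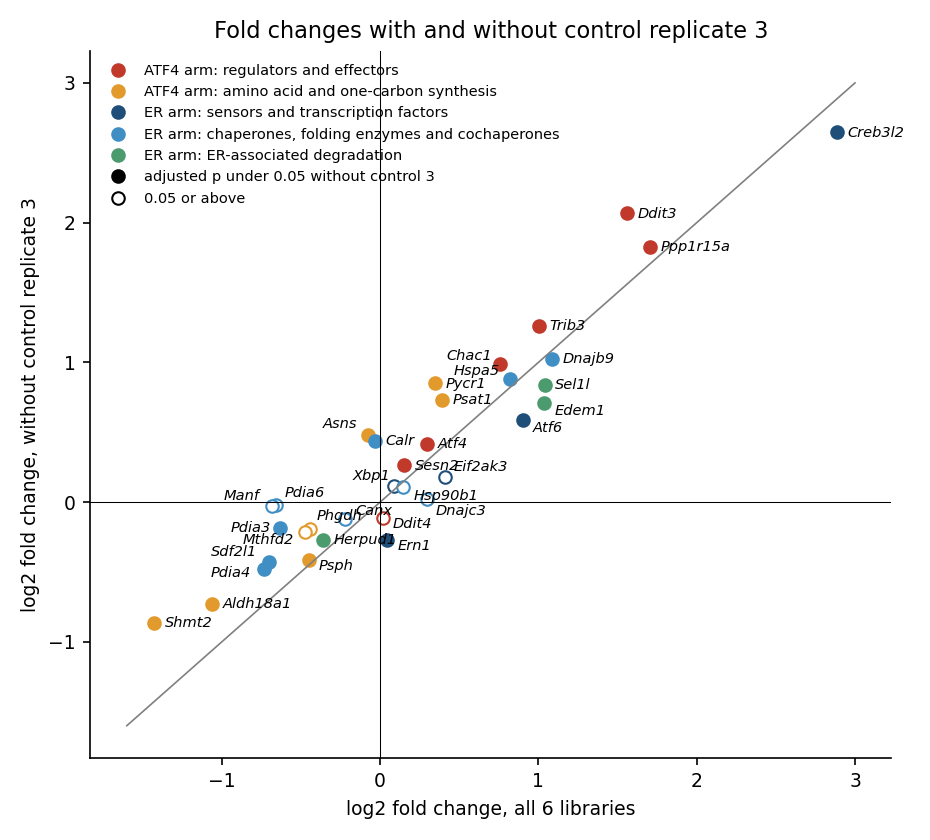
Log2 fold change without control replicate 3 (y axis) against that of all 6 libraries (x axis) for 34 of the 35 genes, with the line of equal values; Ern2 (-6.98 against -6.86) is off the scale and filled points were called without that library. Ddit3, Ppp1r15a, Trib3, Creb3l2, Hspa5, Dnajb9 and Sel1l lie far above 0 on both axes, while Asns and Calr cross to the positive side and Ern1 to the negative side.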

How the data were processed

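Counts came from 6 RNA-seq libraries, 3 per group, grouped by the treatment in the labels. The deposited table holds whole-number read counts per Entrez gene, unnormalized and 1 column per library, as its values show. Per the labels' protocols, RNA came from a column kit and libraries from a TruSeq RNA kit, sequenced on a NextSeq. The submitters' processing notes name the build mm10. The sources used here name no aligner, counter, annotation, strand setting or filter, so overlapping, antisense and near-identical genes are uncertain. The protocol has adult crypts from 1 individual per sample, but no label ties these 6 libraries to separate animals, and p-values measure the spread between libraries.

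RefSeq's GRCm38.p6 gene table named 24570 of 24594 IDs; all 35 members matched. Exon lengths are the union of GENCODE M21 exons. Promoters are RefSeq's. edgeR 4.0.16 (R 4.3.3) was used: expression filter by group (12909 genes left), TMM, robust quasi-likelihood F-test, Benjamini-Hochberg over all genes tested, threshold 0.05. The SE is the log2 fold change over the root of F. The script was tested on simulated data. Groups do not overlap where every library of one lies above every library of the other.

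The alternatives were RLE factors, total counts, no filter, 10 counts in 3 libraries, DESeq2 1.42.0, limma-voom (limma 3.58.1) with and without library quality weights, the replicate block and each library left out. Removal of each library's trend with exon length was added after seeing the data. Members, lists and tests were chosen with earlier results of these data known. All members are named, and from each other list up to 3 called genes with the smallest adjusted p, except that some are not reported here. Depth was 8533452 to 16803062 counts. Protein sequences were not used here.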

Additional observations from a re-analysis of the deposited data

How the results depend on the processing

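Of the 13 called genes, 5 kept their call in all 15 settings (Ddit3, Ppp1r15a, Ern2, Creb3l2 and Dnajb9), and all 13 kept their sign. Of the 22 others, 7 stayed uncalled in all settings. Asns, Ern1 and Calr reversed to a call without control replicate 3 (0.48, -0.27 and 0.43) and with library quality weights (0.43, -0.25 and 0.36), and Derl1 reversed, without a call, with total counts (-0.019). With each library left out Asns ranged from -0.30 to 0.48, Ern1 from -0.27 to 0.27 and Calr from -0.23 to 0.43. With quality weights, which gave control replicate 3 a weight of 0.057, 9548 of all genes were called (4663 higher, 4885 lower), 13 in the ATF4 arm (9 higher, 4 lower) and 14 in the ER arm (7 and 7). With total counts 1747 of all genes were higher and 5131 lower, 2 and 5 in the ATF4 arm and 2 and 6 in the ER arm, so 25.4% of all calls were higher against 47.9%; the medians were -0.29 and -0.38. With each library left out, calls ranged from 3836 (without doxycycline replicate 3) to 9286 (without control replicate 3) over all genes (1945 to 4632 higher, 1888 to 4654 lower), from 3 to 12 in the ATF4 arm (3 to 9 higher, 0 to 3 lower) and from 4 to 13 in the ER arm (3 to 7 higher, 1 to 6 lower). Without doxycycline replicate 2 the ATF4 arm had 3 calls and all genes 3862. The deviations of same-numbered libraries from their group correlated at -0.30, 0.12 and -0.19, and not every library correlated best with its own number. Control replicate 3, which stands apart, bears on the deviations of all controls. These values therefore cannot decide whether the numbers pair the samples. With the replicate block 4509 of all genes were called, 6 in the ATF4 arm and 5 in the ER arm, where 1 was lower, since Pdia4 (adjusted p = 0.0865) and Sdf2l1 (0.0931) lost their calls. Of the other genes named, Dnajc10 (adjusted p = 0.0547), Hspe1 (0.0667) and Derl1 (0.160) lost theirs with the block. The cause of the changes was not tested.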
